A study of Homo sapiens with 14 samples.

Results

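The DLG2 locus was described here as the stretch of chromosome 11 from 83000000 to 85500000 (hg19), which holds DLG2, given as 83.17 to 85.34 Mb, and short stretches on either side. It was chosen because vector-bearing myoblasts listed few ATAC-seq peaks in it and myoblasts with PAX3-FOXO1 listed many, so that contrast is a description here and carries no test. A peak or region belonged to the locus when its midpoint lay inside the borders. The locus held 957 of the 1971391 peaks deposited for 14 libraries. After trimming as described below and merging within cell lines, the locus held 175 of 234240 regions in LHCN and 121 of 202912 in RH30.

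ATAC-seq marks open chromatin through insertion of sequencing adapters by the Tn5 transposase. LHCN, an immortalised human myoblast line, was kept for 72 h with an empty vector or with overexpressed PAX3-FOXO1, a fusion of 2 transcription factor genes that marks alveolar rhabdomyosarcoma. RH30, a line derived from alveolar rhabdomyosarcoma that carries its own PAX3-FOXO1, was treated with 0.1% DMSO or with 200 nM QC6352, which inhibits histone demethylases of the KDM4 family. A separate set of RH30 cells carried short hairpin RNAs for 72 h: shCtrl as the control, and shKDM4B-813 and shKDM4B-814, each directed at the family member KDM4B. All RH30 groups thus carry the fusion, and each cell line is a single model of its kind. The 7 groups held 2 libraries each, every SD below has n = 2 unless stated, and nothing in the labels says that the 2 came from separate cultures, so the spread may be technical.

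DLG2 encodes a membrane-associated guanylate kinase scaffold, also called PSD-93, that gathers receptors and channels at neuronal synapses. It is among the longest human genes, lies on the minus strand and has several start sites, so its upper coordinate is the start of the longest transcripts. PAX3 binds DNA through a paired domain and a homeodomain. FOXO1 gives the fusion its activation domain, and in rhabdomyosarcoma the fusion is known to act largely at distal enhancers.

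RefSeq (GRCh38.p14) places 9 starts in DLG2. The outermost one lies head to head with TMEM126B, a gene for a mitochondrial protein that follows DLG2 in the order of protein-coding genes. The bases between the starts of these genes are shown because the upper end of DLG2 is where open chromatin was listed in every library, as described further on. They are chr11:85628374-85628572 of GRCh38.p14, minus strand, 5′ to 3′, with the match to ATTA, the core of homeodomain sites, in capitals.
TMEM126B to DLG2: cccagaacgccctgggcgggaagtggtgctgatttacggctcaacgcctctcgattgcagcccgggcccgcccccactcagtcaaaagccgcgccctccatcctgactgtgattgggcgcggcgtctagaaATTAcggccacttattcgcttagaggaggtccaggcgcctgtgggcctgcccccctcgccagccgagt
These 199 bases had a GC content of 64.8% and 17 CpG. They held 1 ATTA on either strand, 0 matches to GTCAC, a core of paired-domain sites, and 0 to CANNTG, the E-box bound by myogenic factors. Each motif was searched on both strands and counted by itself, so matches could overlap. Over 35116 promoter windows of 300 bases, 50.2% held ATTA, 42.5% GTCAC and 68.7% CANNTG. The 300-base window at the outermost DLG2 start had a GC content of 61.0% and 22 CpG, against medians of 58.7% and 14 over all windows. The 8 windows at internal starts spanned 38.0% to 68.3% GC and 3 to 21 CpG. Among all 9 windows, 7 held ATTA, 4 GTCAC and 9 CANNTG. These are letter matches in windows of another build. The peaks of the hg19 lists were not placed on these starts, and their sequences were not used here.

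One conflict in the labels touches every hairpin result. The peak names inside the 6 hairpin lists go against the sample titles, while those of the other 8 lists match. Both lists titled shCtrl hold peaks named RH30-sh813, both titled shKDM4B-813 hold peaks named RH30-sh814, and both titled shKDM4B-814 hold peaks named RH30-shCtrl. Groups below follow the titles as "the libraries labelled" so, and the hairpin tests, the hairpin calls and the share held by the controls are given again by the peak names. Other values per library carry the titles alone. KDM4B itself cannot check either reading, since these files hold no expression. Lists held 93488 to 176899 peaks, and a list was trimmed to the shortest of its experiment, or of all libraries under comparison, before anything was counted. Read depth is not known here.

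The number of peaks in the locus separated the LHCN groups. In lists trimmed to 170390 peaks the vector libraries listed 55 and 49 peaks and the PAX3-FOXO1 libraries 142 and 148. Covered DNA was 21070 and 19597 bp with vector against 49233 and 51012 bp with the fusion. Neither vector library came near a fusion library. In lists of one length, 93488, all 14 libraries could be set side by side. The vector libraries then held 25 and 24 locus peaks and the PAX3-FOXO1 libraries 73 and 70. Among RH30 libraries the DMSO pair held 46 and 37, the QC6352 pair 42 and 61, those labelled shCtrl 26 and 27, those labelled shKDM4B-813 82 and 70, and those labelled shKDM4B-814 54 and 40. Every RH30 library thus lay above both vector libraries in count, those labelled shCtrl by the smallest margin. On chromosome 11 as a whole, those labelled shCtrl listed 6867 and 7351 peaks and the vector libraries 4643 and 4752. Relative to the chromosome, the libraries labelled shCtrl therefore did not lie above vector.

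**Figure D1:**
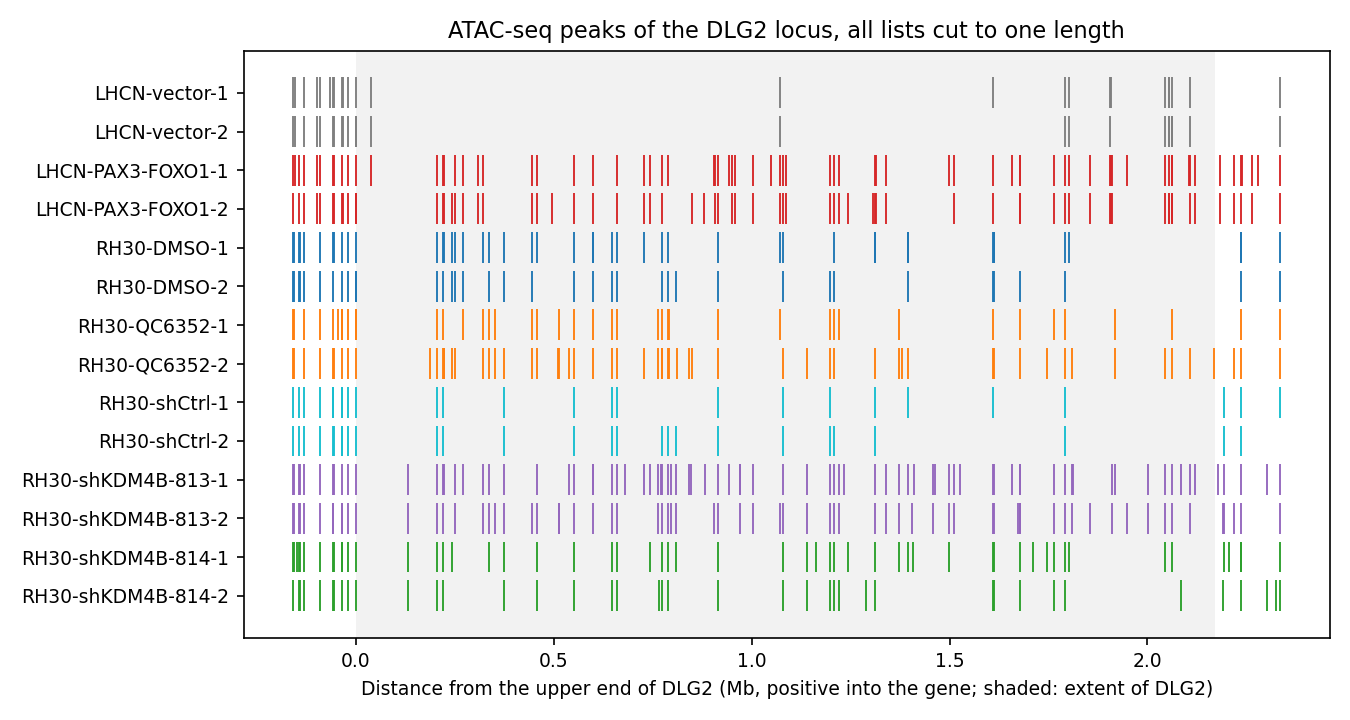
Position of every locus peak in each of the 14 libraries, with lists cut to 93488 peaks; the x axis is the distance from the upper end of DLG2 in Mb, positive into the gene, and the shaded part is the extent of DLG2. The vector rows are nearly empty through the middle of the gene, where the PAX3-FOXO1 libraries listed 35 and 34 peaks.

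The stretches of 2.5 Mb on either side did not show this pattern in LHCN. Together they held 129 and 133 peaks with vector and 126 and 129 with PAX3-FOXO1. Locus peaks per neighbouring peak were 0.194 and 0.18 with vector, 0.579 and 0.543 with the fusion, and 0.381 to 0.59 over the RH30 libraries. The low count of the libraries labelled shCtrl was shared by the neighbours, which held 63 and 60 peaks against 97 to 139 in the other RH30 libraries. Their ratios, 0.413 and 0.45, lay within the RH30 range.

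**Figure D2:**
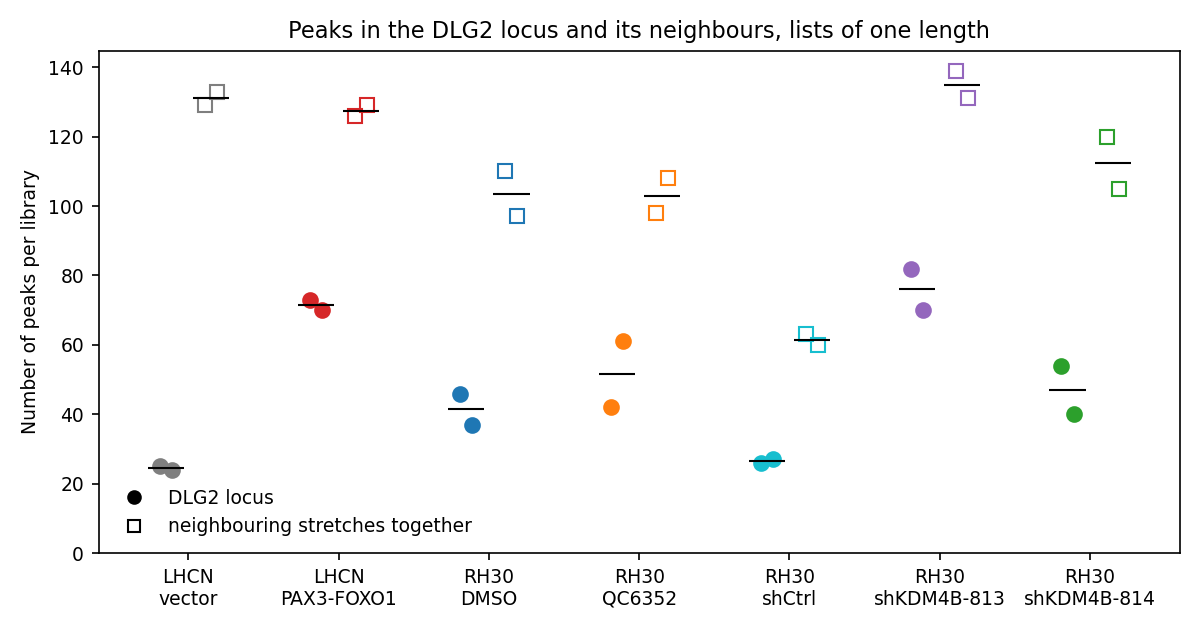
Number of peaks per library in the DLG2 locus (filled circles) and in the 2.5 Mb on both sides together (open squares), lists of 93488 peaks, with a bar at each group mean (n = 2). The PAX3-FOXO1 and vector groups differ in the locus, 73 and 70 against 25 and 24, while their neighbouring counts lie between 126 and 133.

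The numbers varied with position in the gene. In the upper 0.25 Mb of DLG2 the vector libraries held 2 and 3 peaks at equal list length, the PAX3-FOXO1 libraries 6 and 7, and the RH30 libraries 3 to 8. The middle, from 0.25 to 1.75 Mb below the upper end, held 2 and 1 vector peaks and 35 and 34 with the fusion. There DMSO libraries listed 25 and 19, QC6352 libraries 23 and 35, those labelled shCtrl 10 and 12, those labelled shKDM4B-813 49 and 39, and those labelled shKDM4B-814 27 and 19. In this middle part each RH30 library held at least 10 peaks and neither vector library more than 2.

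The lower end, from 1.75 to 2.17 Mb, showed another order. Vector libraries held 9 and 9 peaks there and PAX3-FOXO1 libraries 15 and 14. DMSO libraries listed 2 and 1 and those labelled shCtrl 1 and 1, fewer than vector, while QC6352 libraries listed 4 and 7 and those labelled shKDM4B-813 12 and 10. Those labelled shKDM4B-814 listed 5 and 3. The lower end of the gene was therefore the part where LHCN listed peaks in both groups and the RH30 controls few.

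**Figure D3:**
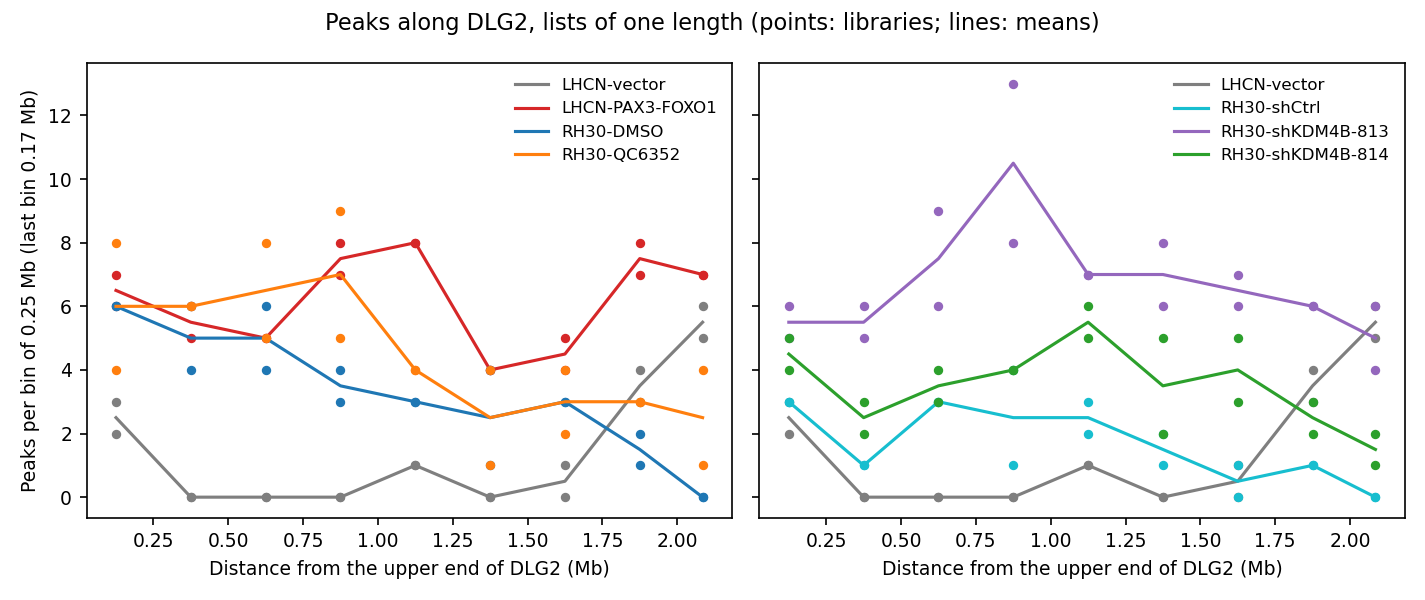
Peaks per 0.25 Mb along DLG2 (the last bin is 0.17 Mb) against distance from its upper end in Mb, lists of 93488 peaks; points are libraries and lines group means, with vector repeated in both panels. Vector lies at 0 or 1 peak per bin between 0.25 and 1.75 Mb, and the libraries labelled shKDM4B-813 reach 13 and 8 peaks in the bin from 0.75 to 1 Mb.

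The longest stretch of DLG2 with no vector peak ran 552 kb, from 84567208 to 85118709, in the lists of 170390. PAX3-FOXO1 libraries listed 24 and 27 peaks in it and had no gap longer than 103 kb anywhere in the gene. In lists of 93488, DMSO libraries held 15 and 10 peaks in this stretch, QC6352 libraries 12 and 19, those labelled shCtrl 4 and 4, those labelled shKDM4B-813 18 and 14, and those labelled shKDM4B-814 8 and 6. Of 30 LHCN regions in the stretch, 21 were gained with the fusion.

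A region was called gained when both PAX3-FOXO1 libraries and neither vector library listed a peak on it, and lost in the reverse case. Of the 175 LHCN regions of the locus 71 were gained, or 40.6%, where 8.13% of all regions were gained, and 3 were lost, or 1.71%, where 8.44% were lost in all. The locus was picked on this contrast, so the excess is no finding. A further 39 were present in all 4 libraries. Of the remaining 62 regions, 46 were listed in 1 PAX3-FOXO1 library alone, 10 in both and in 1 vector library, and 6 otherwise. None of the 71 gained regions had a weaker peak in the untrimmed vector lists, a count of 0.

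Gains lay within the gene and below it. Within DLG2, 66 of 142 regions were gained, or 46.5%, and 0 lost. Above the gene, 0 of 20 regions were gained and the 3 losses lay there, at chr11:85339934-85340293, chr11:85406618-85407001 and chr11:85427263-85427563. Below the gene 5 of 13 were gained, or 38.5%. The neighbouring 2.5 Mb held 9 gained of 89 regions on the lower side, 10.1%, and 17 of 217 on the upper side, 7.83%, against 8.43% over chromosome 11. Among 1078 stretches of 2.5 Mb with at least 50 regions, 4 held more gained regions and 5 a higher gained share than this one, and the median stretch held 15, or 7.34%.

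The borders were round numbers and cut through ordinary regions. Just inside and outside the lower border, the regions chr11:83003948-83004338 and chr11:82996396-82997823 were both present in all 4 LHCN libraries. At the upper border the region inside, chr11:85498794-85499224, was present in all 4, and the next one outside, chr11:85512063-85512280, in 1 PAX3-FOXO1 library.

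The rank of each peak within its list was written as a percentile, with 100 for the strongest. By the lower percentile of both fusion libraries, gained regions of the locus had a median of 40.8, against 23.4 for gained regions of the genome. Their median width was 310 bp against 298 bp. The authors' fold values, given beside some peaks below, are enrichments over background within one list.

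The strongest gained region, chr11:84260197-84260647, lay 1079.6 kb below the upper end of the gene. It stood at percentiles 92.6 and 91.1 in the PAX3-FOXO1 libraries, with fold values of 29.7 and 35.7. In RH30 it was listed in 9 of 10 libraries, at 68.8 and 63.9 with DMSO, 62.3 and 76.9 in those labelled shCtrl, 88.9 and 90.6 in those labelled shKDM4B-813 and 89.5 and 80.0 in those labelled shKDM4B-814. With QC6352 it was at 51.6 in 1 library and was not listed in the other. The nearby chr11:84252569-84253104, 1087.2 kb below the upper end, was nearly as strong in LHCN, at 89.7 and 90.5. No RH30 library listed it, even before trimming. These regions, both strong with the fusion in myoblasts, thus differed in RH30 from 9 libraries to 0.

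The third, chr11:84027981-84028564, stood at 91.3 and 89.3 in LHCN and was listed in 8 RH30 libraries. It was weak with DMSO, at 18.8 in 1 library and unlisted in the other, and stood at 84.8 and 83.9 in the libraries labelled shKDM4B-813. The region chr11:84425324-84425636, at 78.0 and 76.8 in LHCN, was listed in all 10 RH30 libraries between percentiles 50.4 and 84.1. The rest of the 12 strongest gained regions divided between those seen widely and those seen rarely in RH30. chr11:84141508-84142038 was listed in 9 RH30 libraries, chr11:84881197-84881617 in 7, and chr11:85018457-85018901 and chr11:83576674-83577080 in 5 each. chr11:84337268-84337639, chr11:84597394-84597669 and chr11:84000419-84000794 were listed in 2 each, the first and the last of them in both libraries labelled shKDM4B-813. chr11:85031669-85031973, at 68.7 and 76.8 in LHCN, was listed in none.

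The strongest regions present in all 4 LHCN libraries lay mostly at and above the upper end of the gene. The region at that end, chr11:85338213-85339832, was 1620 bp wide and stood at 99.6 and 99.7 with vector and 99.5 and 99.4 with PAX3-FOXO1. All 10 RH30 libraries listed it, at 84.3 to 97.2. The regions chr11:85429459-85430747, chr11:85358584-85359340 and chr11:85396057-85397536 above the gene were likewise in all 10, and their lowest LHCN percentiles were 98.1, 97.0 and 96.6. Across 14 lists of equal length 8 locus regions were present everywhere. Of these, 6 lay above DLG2, 1 at its upper end, and chr11:83547829-83548152 1792.0 kb into the gene.

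The other leading shared regions sat near the lower end. chr11:83277946-83278395 and chr11:83294875-83295390, 2061.8 and 2044.9 kb below the upper end, each stood at no less than 91.3 in every LHCN library. Neither was listed in any of the 4 RH30 controls by the titles. By the peak names 1 control listed both, the first library labelled shKDM4B-814, at 26.2 and 50.3. Over the locus 9 of 39 regions present in all 4 LHCN libraries were in all 4 RH30 controls, 23.1% (95% Wilson interval 12.6 to 38.3, over regions), which covers the genome's 29.4%. Within DLG2 it was 2 of 25, or 8.0% (2.22 to 25.0).

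Presence alone hid some of the contrast. After seeing the values, regions were counted in which both PAX3-FOXO1 libraries stood at least 50 percentile points above any vector peak on them. The locus held 4 such regions among 49, or 8.16%, against 1.12% over the genome, and 0 of 42 in the other direction, against 0.374%. This count rests on the contrast that picked the locus, so its excess is no finding either. At chr11:83103519-83103993, below the gene, vector libraries stood at 5.97 and 10.4 and fusion libraries at 98.0 and 96.1. At chr11:85118492-85119089, the region that ends the 552 kb stretch, 1 vector library stood at 0.637, the other listed nothing and the fusion libraries stood at 94.5 and 96.1. Both regions were present in all 10 RH30 libraries, the former at 93.3 to 99.7 and the latter at 78.3 to 98.4. Of the other two, chr11:84566607-84567283 was in 9 RH30 libraries and chr11:84431264-84432332 in 0. The gained count therefore leaves out some of the regions with the widest differences in rank.

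Whether RH30, with its own fusion, lists the gained regions was asked in lists of 93488 peaks. All 4 control libraries, DMSO and those labelled shCtrl, listed 5 of 71, or 7.04% (95% Wilson interval 3.05 to 15.4, for counting over regions only, which are not replicates). Over all gained regions the share was 13.5%. At least 1 control listed 21, or 29.6%, against 33.7% over the genome. Both DMSO libraries listed 12, or 16.9%, against 21.7%, and with shCtrl taken by the peak names all 4 controls listed 7, or 9.86%, against 17.3%. By each definition the locus share lay below the genome's, and each of its Wilson intervals reached past the genome's value (up to 41.0, 27.3 and 19.0 for the last 3). These intervals do not measure the spread between libraries, so whether the shares differ was not tested.

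The RH30 libraries differed in how many gained regions they listed. At least 1 of the 10 RH30 libraries listed 39 gained regions, 54.9% (interval 43.4 to 66.0) against 46.6% over the genome. Both libraries labelled shKDM4B-813 listed 25, or 35.2% (25.1 to 46.8), against 23.6%. Singly, these listed 35 and 27, which is 49.3% and 38.0%, where they listed 30.8% and 26.8% of all gained regions. QC6352 libraries listed 16 and 21, 22.5% and 29.6% against 18.1% and 21.3%. DMSO libraries listed 18 and 14, 25.4% and 19.7% against 26.6% and 25.5%. Those labelled shCtrl listed 8 and 10, 11.3% and 14.1% against 19.4% and 19.7%, and those labelled shKDM4B-814 18 and 14, 25.4% and 19.7% against 27.9% and 24.5%, as many regions as with DMSO. In both libraries labelled shKDM4B-813 and both with QC6352 the locus share lay above the genome's, and in the other 6 below it.

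Within the locus, gained regions held by RH30 had higher median percentiles in LHCN. The median lower percentile was 58.3 for the 5 in all controls, 58.6 for 16 in 1 to 3 controls, 42.0 for 18 in another RH30 library, and 23.1 for 32 in no RH30 library. The last group still ranged from 2.47 to 89.7. In the untrimmed RH30 lists 28 were absent from all 10. Of the 18 without a control peak, 12 were listed in 1 or both libraries labelled shKDM4B-813 and in no other. Matching medians and counts over all gained regions are not given here, so neither pattern is shown to be particular to the locus.

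**Figure D4:**
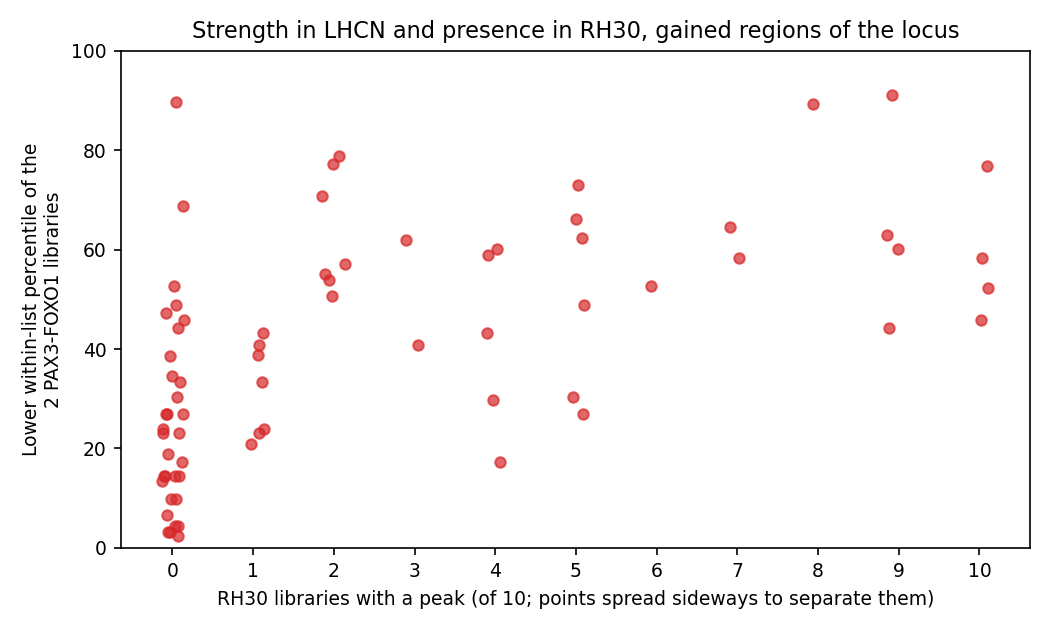
Each point is 1 of 71 gained regions, with the number of RH30 libraries that listed it (0 to 10) on the x axis and the lower of its percentiles in the PAX3-FOXO1 libraries on the y axis. The 32 points at 0 spread from 2.47 to 89.7, and the 8 points at 9 or 10 libraries all lie at 44.3 or above.

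Seen from RH30, 18 of its 121 locus regions were in all 4 controls and 15 in all 10 libraries, while 44 were in a single library. Vector LHCN listed 29 of the 121, and 10 of these were in all 10 RH30 libraries. Both fusion libraries and no vector library listed 40, of which 4 were in all 10, and 1 fusion library alone listed 13, of which 1 was. No LHCN library listed the remaining 39, and 0 of these were in all 10. The region at the head of the control ranking was chr11:83103375-83104008, which stood at 98.6 or more in all 4 controls. Next came chr11:85429843-85430800 and chr11:85396055-85397539 above DLG2 and chr11:85338748-85339815 at its upper end. Their lowest control percentiles were 92.1, 90.1 and 86.6. Then came chr11:85134071-85134935 within the gene, ahead of chr11:85358673-85359280 above it.

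Some RH30 regions within the gene had no counterpart in vector myoblasts. The region chr11:85134071-85134935, 205.5 kb below the upper end, was listed with the fusion in LHCN, at 62.4 and 58.3, and not with vector, and stood at 82.8 or more in the 4 controls. chr11:84692328-84692882 was in all 10 RH30 libraries, at 70.9 to 95.3, and in 1 PAX3-FOXO1 library of LHCN. chr11:84964304-84964769 was in 9 RH30 libraries, with DMSO at 68.8 and 73.8, and in no LHCN list. It was the single region in all 4 controls without an LHCN peak. With QC6352 it stood at 47.8 in 1 library and was unlisted in the other.

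QC6352 and DMSO did not separate in locus peak number. In lists of 105136 the DMSO libraries held 49 and 40 peaks and the QC6352 libraries 45 and 64. The means were 44.5 ± 6.36 and 54.5 ± 13.4, a difference of 10.0 (exact two-sided permutation test, p = 0.667, and 0.667 after Benjamini-Hochberg adjustment over 4 comparisons of this kind). The groups overlapped, and with 2 against 2 no p below 0.333 was possible. Without the second QC6352 library the difference was 0.5.

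Of 82 locus regions in that experiment 9 were gained with QC6352, or 11%, against 6.5% over all regions, and 1 was lost, or 1.22%, against 7.28%. A further 25 were in all 4 libraries. Left without the first QC6352 library the same rule gave 26 gains, and leaving out any 1 library gave 4 to 7 losses, since fewer libraries then had to agree. The shares over all regions with a library left out are not given here. The leading gain was chr11:83967174-83967487, 1372.7 kb below the upper end, with fold values of 6.91 and 7.36. It was followed by chr11:84987375-84987694, chr11:83278036-83278294 and chr11:84825840-84826096, with lower percentiles of 50.9, 39.8 and 39.8. The third of these is the shared lower-end region named above, which both LHCN groups listed and, by the titles, no RH30 control did. The lost region was chr11:83945021-83945248, with fold values of 5.98 and 6.76 with DMSO and no LHCN peak. When all RH30 lists were merged, it became part of chr11:83944986-83945817. On that wider region the second QC6352 library listed a peak, at percentile 25.0, as did both fusion libraries of LHCN. The loss and the lack of an LHCN peak therefore rest on how peaks were merged. All 10 called regions lay within DLG2, which takes up most of the locus. The share of the 82 regions that lay within it is not given here. Of the 9 gains, 3 fell on regions with both fusion peaks and no vector peak in LHCN, 3 on no LHCN peak and 2 on regions with a vector peak. Among all 121 RH30 regions of the locus these kinds numbered 40, 39 and 29.

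The 15 regions present in all RH30 libraries had median percentiles of 84.3 and 88.2 with DMSO and of 84.3 and 93.3 with QC6352. For the 4 of them that LHCN listed with the fusion alone, medians were 78.7 and 74.8 with DMSO and 84.6 and 94.6 with QC6352. Both QC6352 values lay above both DMSO values in the latter set, and those of the 15 touched at 84.3. Fold values of the same 15 regions gave another order. Their medians were lower in the QC6352 libraries, at 11.3 and 15.0, than in the DMSO libraries, at 17.9 and 19.6. Median folds of the set of 4 are not given here. Whether these regions differed in openness was not tested. Matching medians over the genome are not given here.

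Among the hairpin libraries those labelled shKDM4B-813 held the most locus peaks. In lists of 93488 they held 82 and 70, against 26 and 27 in those labelled shCtrl. The means of 76.0 ± 8.49 and 26.5 ± 0.707 differed by 49.5 peaks, a ratio of 2.87, and the groups did not overlap. The exact two-sided permutation test gave p = 0.333, the smallest that 2 against 2 allows, and 0.444 after adjustment. Those labelled shKDM4B-814 held 54 and 40, a mean of 47.0 ± 9.9, which differed from shCtrl by 20.5 peaks with p = 0.333 by the same exact test and 0.444 after adjustment. Both hairpins together, 61.5 ± 18.4 (SD, n = 4), differed from the libraries labelled shCtrl by 35.0 peaks, with an exact p = 0.133, the smallest that 4 against 2 allows, and 0.444 after adjustment. These comparisons share their control libraries.

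By the peak names the directions parted. The difference of the libraries named RH30-sh813 from those named RH30-shCtrl was then -20.5 peaks (exact permutation p = 0.333), that of RH30-sh814 was 29.0 (exact p = 0.333), and that of both together 4.25 (exact p = 0.8). So the sign of the first comparison rests on which label is right. The libraries labelled shCtrl were also low in the neighbouring stretches, as given above, with 63 and 60 peaks against 139 and 131 and against 120 and 105, while on chromosome 11 as a whole they listed 6867 and 7351 peaks, more than the 5615 to 6566 of the other hairpin libraries. What part a shift of the lists toward other stretches had in the locus counts was not tested.

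By the titles, regions called between these libraries ran one way. Of 107 locus regions, those labelled shKDM4B-813 gained 28, or 26.2%, against 11% over all regions, and lost 0, against 7.08%. Those labelled shKDM4B-814 gained 7, or 6.54%, against 5.77%, and lost 0, against 5.81%. For the latter the gained share was close to the background. Both hairpins gained the same 7 regions together, against a background of 3.46%, and lost 0, against 4.54%. By the peak names RH30-sh813 gained 0, against 5.81%, and lost 7, against 5.77%. By the same names RH30-sh814 gained 14, or 13.1%, against 4.79%, and lost 0, against 2.58%. Both together then gained 0, against 0.208%, and lost 0, against 1.1%.

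The leading region labelled as gained with shKDM4B-813 was chr11:83662426-83662933, 1677.3 kb below the upper end, with fold values of 39.3 and 23.8 there and of 12.7 and 5.58 in the libraries labelled shKDM4B-814. In LHCN it was gained with PAX3-FOXO1, at percentiles 71.7 and 58.3. It was followed by chr11:84881180-84881637 and chr11:84000421-84000800, both also gained in LHCN, and by chr11:85495863-85496282 above the gene, on which 1 library labelled shCtrl had a weaker peak before trimming. Of the 28 gains, 15 fell on regions with both fusion peaks and no vector peak in LHCN, 8 on no LHCN peak and 4 on regions with a vector peak. The remaining one had 1 fusion peak. Among all 121 RH30 regions of this locus, picked for fusion gains, these kinds numbered 40, 39, 29 and 13. The split over the genome is not given here, and a link between hairpin gains and fusion regions was not tested.

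The 7 regions gained by both hairpins under the titles were led by chr11:84881180-84881637, chr11:83662426-83662933, chr11:83576667-83577045 and chr11:83726683-83727224. For the last, fold values were 7.7 and 8.2 in the libraries labelled shKDM4B-813 and 11.2 and 7.3 in those labelled shKDM4B-814, and no LHCN library listed it. The gains with shKDM4B-814 were led by that region and by chr11:85480756-85481261, above the gene. Of the 7, 4 fell on fusion-gained regions of LHCN and 3 on no LHCN peak. Both fusion libraries and no vector library listed 40 of all 121 RH30 regions of the locus, and no LHCN library listed 39.

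Locus regions present throughout also ranked higher in the libraries labelled with a KDM4B hairpin. Matching medians over the genome are not given here, so this is not shown to be particular to the locus. Over the 15 regions in all RH30 libraries, median percentiles were 82.8 and 70.9 in those labelled shCtrl, 94.4 and 92.8 in those labelled shKDM4B-813 and 91.1 and 90.6 in those labelled shKDM4B-814. For the 4 that LHCN listed with the fusion alone they were 77.4 and 61.7, 91.6 and 90.9, and 87.9 and 86.1. By the peak names the first of these pairs is RH30-sh813, the middle one RH30-sh814 and the last RH30-shCtrl.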

How the data were processed

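The members and the lists were chosen with earlier results of these data known. The deposited files were narrowPeak lists, 1 per library. The submitters' processing notes name hg19, MACS2 2.1.1, BWA 0.7.12-r1039, SAMtools 1.3.1 and Picard 1.65, without settings. Per the file columns the authors deposited a score, a fold (ratio over background), −log10 p and −log10 q and a summit per peak. The deposited −log10 q ranked the peaks, with lowest values of 2.0 to 2.6, and absence means only that no peak passed that limit or was kept. Each list belongs to 1 library.

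Lists were trimmed to the shortest of the experiment by −log10 q, then fold, then position: 170390 in LHCN, 105136 in the compound and 93488 in the hairpin experiment and across experiments. Up to 15215 peaks tied at a limit. Trimmed peaks overlapping by 1 bp were merged. Coordinates count from 1. Tests were exact two-sided permutations over libraries, with p adjusted by Benjamini-Hochberg over 4; Wilson intervals were 95%. The code of the calling step was checked on simulated lists with planted gains and losses. This gives no error rate for calls in these lists. Alternatives varied list length, peak threshold, overlap, region definition, ties, labels and libraries left out. Regions were named by rule: the 12 strongest gained, up to 6 shared in LHCN, up to 8 in RH30 controls, up to 4 per call, and those at the borders, of which some are printed; those with a gap of 50 percentile points were chosen after their values were seen. Python 3.11.15, numpy 2.4.6, pandas 2.3.3 and scipy 1.17.1 were used. No genome of build hg19 was used, so no region is assigned to exon or intron.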

Additional observations from a re-analysis of the deposited data

How the results depend on the processing

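The locus counts depend on list length and on presence calls, and read depth is not known here. Values that moved by over 1.5 times or turned are given first, and their causes were not tested beyond what each setting removes by construction. Shares over all regions are not given for a changed list length, threshold, overlap, region definition or calling rule, or with libraries left out. PAX3-FOXO1 gains were 13 among the 50000 strongest peaks and 8 with a strong peak set against an absent one, and losses were 0 by the latter rule. With −log10 q of 10 or more, losses were 1 with PAX3-FOXO1 and 2 with QC6352, and QC6352 gains were 3. QC6352 losses were 3 where peaks had to cover 50% of a region and 2 in windows of 150 bp around summits. The share of gained regions held by RH30 controls was 30.8% among the 50000 strongest peaks (4 of 13), 29.6% for any control and 16.9% for DMSO alone. Grouped by peak names, a setting chosen after seeing the data, shKDM4B-813 minus shCtrl turned to -20.5 peaks and gains with both hairpins to 0. That difference was 67.0 in deposited lists and 21.5 among the 50000 strongest peaks, and in the latter it was 16.2 for both hairpins and 11 for shKDM4B-814, which gave 12.0 with −log10 q of 10 or more. Ties left out or kept, also tried after seeing the data, gave 46.0 and 51.5.

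Leaving out each library in turn, peak differences ranged from 0.5 to 19.5 for QC6352, 43.5 to 55.5 for shKDM4B-813, 13.5 to 27.5 for shKDM4B-814 and 28.2 to 42.2 for both. Gains and losses ranged from 73 to 95 and 3 to 6 with PAX3-FOXO1, 10 to 26 and 4 to 7 with QC6352, and 7 to 13 and 0 to 0 with both hairpins, the 13 without the second library labelled shKDM4B-814. The held share ranged from 5.38% to 9.86%. With the replicate number as a block, the differences stayed 10.0, 49.5, 20.5 and 35.0, with exact permutation p of 1.0, 0.5, 0.5 and 0.222. Same-numbered deviations correlated at -0.118 to 0.0587 across regions. The labels do not say whether same-numbered libraries were prepared together, and these correlations cannot settle it.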
